A study of Mus musculus with 24 samples.

Results

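The comparison described here is the effect of losing CHIP in fibroblasts that were not heated, on arrays labelled 240 min. Its members were chosen by label: 3 arrays of CHIP null controls and 3 arrays of wildtype controls, 6 of the 24 arrays of the series. The cells were mouse embryonic fibroblasts, connective tissue cells grown from embryos of C57BL6 parents that were heterozygous for CHIP. The CHIP null cells were CHIP (-/-) and wildtype cells were CHIP (+/+), and both were kept at 37 °C in medium with β-mercaptoethanol. The other groups set beside them were the unheated cultures labelled 30 min and the cultures heated to 43 °C for 240 min, of both genotypes. The labels describe the replicates of a condition as biological and do not say which embryos or cultures they came from.

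Stub1 encodes CHIP, which binds HSP70 and HSP90 and, as a ubiquitin ligase, marks their client proteins for degradation. It also takes part in the heat shock response through the transcription factor HSF1. The title of the series names the protein DAXX, a regulator of p53-linked cell death, and heat stress. Embryonic fibroblast cultures are made from whole embryo bodies and can hold muscle, nerve, epithelial and blood precursors, so markers of those cells were followed too.

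The 60-base promoter stretches shown here belong to genes from the interferon and the amino acid stress groups, the first lower and the second higher in CHIP null cells. They come from RefSeq (GRCm38.p6), run 5′ to 3′ on the strand of the gene, and lie before its start site. Capitals mark matches to GAAANNGAAA, the core of an interferon response element, in Isg15 (chr4:156200852-156200911, minus strand), Bst2 (chr8:71537558-71537617, minus strand) and Oas1a (chr5:120907526-120907585, minus strand). Neighbouring matches share bases, so the capitals of 2 or 3 matches run together.
Isg15: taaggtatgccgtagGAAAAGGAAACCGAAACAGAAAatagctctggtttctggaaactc
Bst2: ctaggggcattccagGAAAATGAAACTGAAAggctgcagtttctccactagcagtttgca
Oas1a: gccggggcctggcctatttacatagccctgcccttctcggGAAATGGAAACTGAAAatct

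Capitals in the next 3 mark TGATGNAA, the composite element bound by ATF4, on either strand, in Asns (chr6:7693210-7693269, minus strand), Pck2 (chr14:55540148-55540207, plus strand) and Chac1 (chr2:119351034-119351093, plus strand).
Asns: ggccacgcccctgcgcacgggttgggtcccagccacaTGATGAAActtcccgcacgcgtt
Pck2: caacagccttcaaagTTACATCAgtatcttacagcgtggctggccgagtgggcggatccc
Chac1: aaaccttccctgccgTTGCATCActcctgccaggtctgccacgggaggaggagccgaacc

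Both motifs were searched on both strands of the 250 bases before the start of 9637 tested genes. GAAANNGAAA was found in 281 of them (2.92%), and in 8 of the 14 interferon genes (57.1%) that were lower in CHIP null cells and had a promoter in the table. It was also found in 2 of the 8 other members of the list. The lower genes with a match were Isg15, Bst2, Oas1a, Stat2, Ifit1, Ifit3, Gbp3 and Igtp. TGATGNAA was found in 229 genes (2.38%), and in 4 of the 11 amino acid stress genes (36.4%) that were higher, the other being Nupr1. It was also found in 3 of the 8 other members of the list, a share close to that of the higher genes. A match describes the letters of the window and is not evidence that a factor bound there.

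Every array set sample RNA in Cy5 against a common mouse reference RNA in Cy3, and a value is the log2 of Cy5 over Cy3. In Cy5, 46.45% to 48.35% of probes were well above background on the CHIP null arrays and 46.58% to 48.62% on the wildtype arrays. Values of the tested genes correlated at 0.9899 to 0.995 between arrays of a genotype and at 0.9787 to 0.9845 between genotypes. The first principal component of the 6 arrays held 62.3% of the variance and separated the genotypes. CHIP null replicate 2 stood apart on the second, which held 15.2%. The 3 wildtype arrays shared a slide, and the CHIP null arrays lay on another pair of slides, so that slide and genotype cannot be told apart within these 6 arrays. In the authors' value table the 30 min columns of unheated cells held the values of scanner files labelled 240 min, and the reverse. The right label could not be settled, and times given here follow the scanner files. All 15 fibroblast markers listed passed the filter on dim probes.

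Stub1 (chr17:25830634-25832919, GRCm38.p6) was the gene with the largest difference. Its values were -2.43, -2.14 and -2.33 in CHIP null cells, against -0.23, -0.18 and -0.24 in wildtype cells. The groups were far apart and the labels were borne out on every array. The difference was -2.08 ± 0.07 (SE, n = 3 arrays each), a 4.23-fold lower ratio, with an adjusted p of 6.5e-18 (limma, Benjamini-Hochberg). Signal stayed above background on all 3 CHIP null arrays. Where the probe lies relative to the deleted part was not tested.

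Of 13486 genes tested, 1762 (13.1%) differed between genotypes at an adjusted p at or under 0.05. CHIP null cells had 648 genes higher (4.8%) and 1114 lower (8.26%). The changes were small: the median absolute difference of the called genes was 0.295 on the log2 scale. Past 1.5-fold lay 36 higher genes (0.267%) and 149 lower genes (1.1%), and past 2-fold lay 26 in both directions. The median over all genes was -0.02. The 3 arrays of one genotype lay entirely beyond the 3 of the other in 4259 genes (31.6%). With slide as a fixed block, 470 genes passed the test, 438 of them among the 1762. That block links the genotypes only through 1 heated wildtype array.

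**Figure D1:**
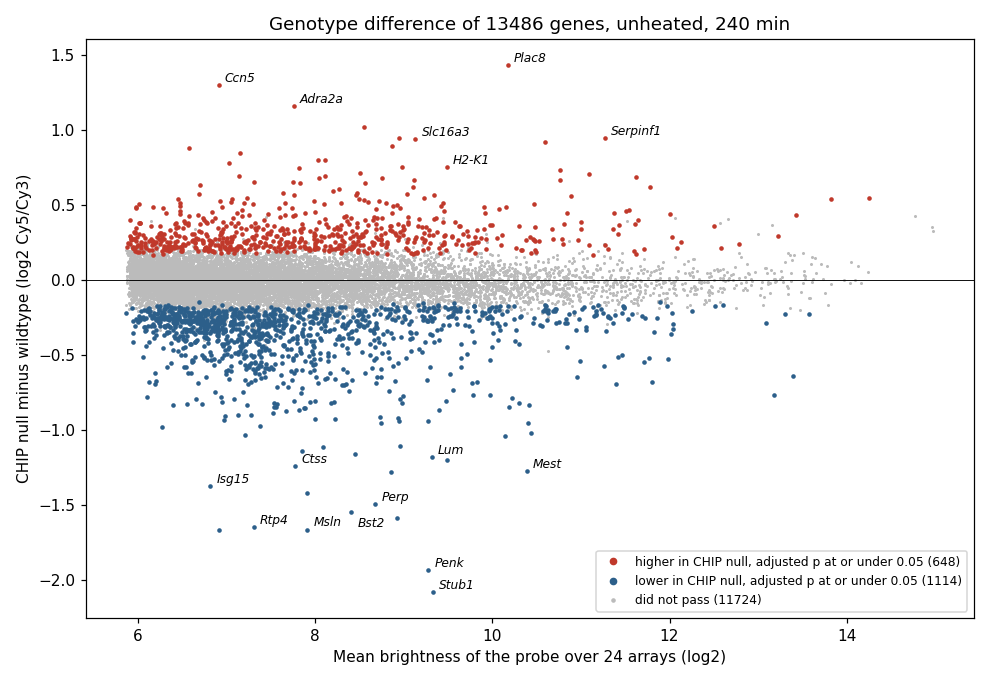
Genotype difference (CHIP null minus wildtype, log2 Cy5/Cy3) of each tested gene against the mean brightness of its probe over 24 arrays (log2). Red points (648) passed the test as higher in CHIP null cells, blue points (1114) as lower, and grey points did not pass; Stub1 and Penk lie lowest and Plac8 highest.

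Among the genes higher in CHIP null cells, Plac8 led. It had values of 1.51, 1.56 and 1.61 in CHIP null cells, against 0.19, 0.08 and 0.12 in wildtype cells, a 2.69-fold difference (1.43 ± 0.06, SE, n = 3 each; limma adjusted p 2.3e-16). Ccn5, a secreted protein of the CCN family, stood at 2.97, 2.83 and 2.90 in CHIP null cells and at 1.46, 1.75 and 1.60 in wildtype cells. The groups of both genes were more than 1 log2 unit apart. Adra2a, an adrenergic receptor, had 0.82, 0.73 and 0.89 in CHIP null cells, against -0.28, -0.47 and -0.29 in wildtype cells. Its other 2 probes gave differences of 0.31 and 1.04. Serpinf1, which encodes the secreted anti-angiogenic factor PEDF, had 1.04, 1.08 and 1.11 in CHIP null cells, against 0.11, 0.14 and 0.16 in wildtype cells, and a second probe differed by 0.68.

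Membrane and signalling genes followed. Itga11, a collagen-binding integrin subunit, differed by 0.94 ± 0.08 and Slc16a3, the lactate exporter MCT4, by 0.94 ± 0.05 (SE, n = 3 each). Cck, which encodes a peptide hormone, was 1.74-fold higher, Egr2, an immediate early transcription factor, 1.71-fold, and Sgk1, a kinase induced by serum and glucocorticoids, 1.68-fold. Rpl39l, a ribosomal protein paralogue, was 1.68-fold higher by its brightest probe, and its other probe differed by 0.19. For 2 genes the probes disagreed: Vps13a differed by 1.02 and Itgb3 by 0.79 on the brightest probe, whereas the other probes gave 0.02 to 0.10 for Vps13a and 0.08 for Itgb3. On the Vps13a probe, CHIP null replicate 1 (-0.54) stood apart from the other CHIP null arrays (0.22 and 0.32), and the mean normalized Cy5 signal (log2) was 7.32 in CHIP null cells and 9.03 in wildtype cells, against the direction of the ratio.

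The lower genes were led, after Stub1, by Penk, the precursor of the enkephalin peptides. Penk had -3.76, -3.75 and -3.77 in CHIP null cells, against -1.89, -1.64 and -1.94 in wildtype cells, a difference of -1.93 ± 0.08 (SE, n = 3 each; limma adjusted p 4.2e-17). Its second probe fell by 0.78. Lsr, a tight junction protein of epithelia, had -3.82, -3.47 and -3.59 in CHIP null cells and -2.23, -2.08 and -1.81 in wildtype cells. Perp, a desmosome-associated protein and p53 target, had -3.76, -3.72 and -3.89 in CHIP null cells, against -2.28, -2.34 and -2.26 in wildtype cells. The groups of these genes did not overlap, which was a condition of the rule that named them and held in 31.6% of all genes. For Zfp945, a zinc finger gene on the chromosome of Stub1, the brightest probe was not well above background on any CHIP null array and was at least 3.1-fold lower there, while the gene's other probe was higher by 0.33.

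**Figure D2:**
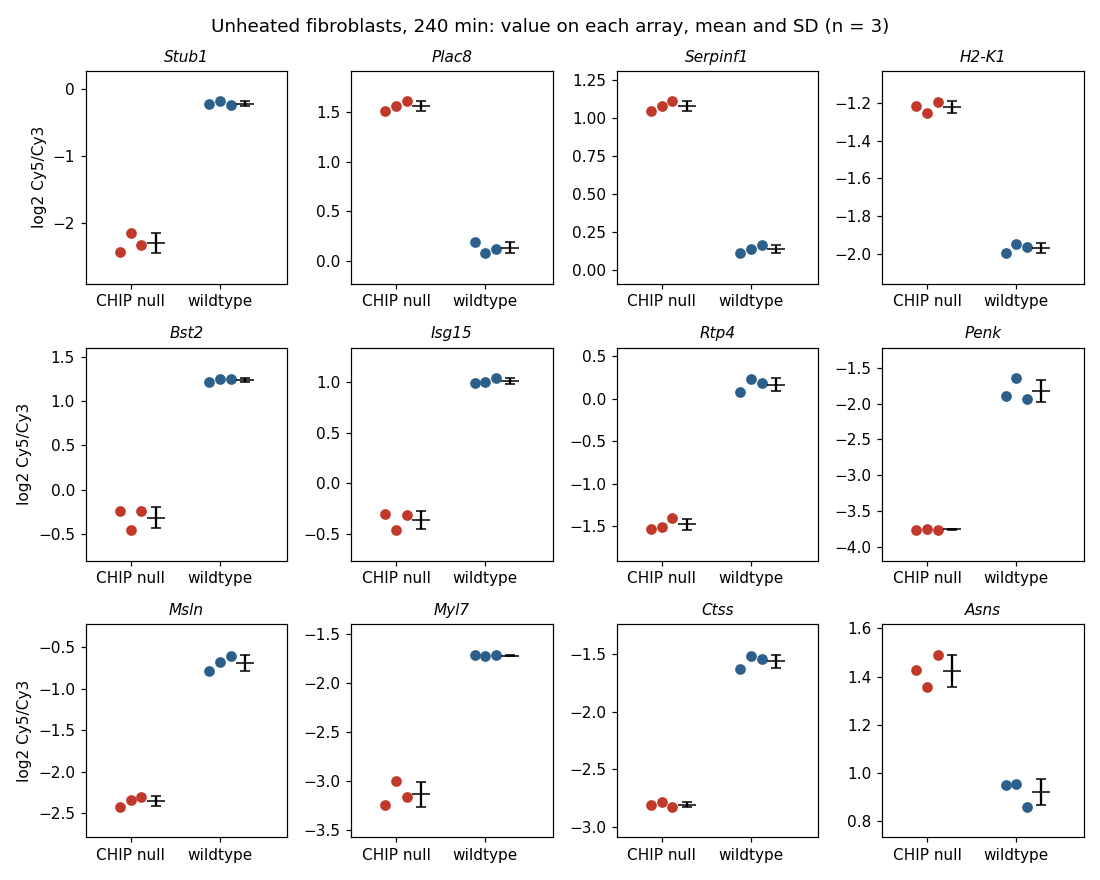
Values of 12 named genes on each array (log2 Cy5/Cy3; each panel has its own scale), CHIP null in red on the left and wildtype in blue on the right, with mean and SD of 3 arrays. In every panel the 3 CHIP null arrays lie entirely above or below the 3 wildtype arrays, as in 31.6% of all genes. For most of these genes that was a condition of the rule that named them.

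Genes of the interferon response and of antigen presentation formed the group with the lowest median apart from striated muscle. Of 26 tested, 18 were lower and 3 higher in CHIP null cells, against 8.26% lower and 4.8% higher of all genes. The median was -0.41 against -0.02 over all genes. Past 1.5-fold, 7 were lower and 1 was higher. The lower ones include effectors and regulators of the type I interferon response. Bst2, the virus-tethering protein tetherin, had -0.24, -0.46 and -0.24 in CHIP null cells, against 1.21, 1.25 and 1.24 in wildtype cells, a 2.92-fold lower ratio (-1.55 ± 0.06, SE, n = 3 each). Isg15, a ubiquitin-like modifier, had -0.30, -0.47 and -0.32 in CHIP null cells, against 0.998 to 1.04 in wildtype cells. The groups of both genes lay over 1 log2 unit apart.

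Usp18, the protease that removes ISG15 from proteins, differed by -0.84 ± 0.07, and Irf9, the DNA-binding subunit of the interferon-activated complex ISGF3, by -0.82 ± 0.07 (SE, n = 3 each). Oasl2 and Oas1a, of the oligoadenylate synthetase family, differed by -0.65 and -0.56. Rtp4, an interferon-induced gene outside the list, was among the lowest of all, with -1.53, -1.51 and -1.41 in CHIP null cells and 0.08, 0.24 and 0.18 in wildtype cells. Mx1, Mx2 and Rsad2 were not well above background in either genotype.

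The 3 higher members were H2-K1 and H2-D1, classical class I antigen genes, and the transcription factor Irf1 (0.21). H2-K1 had -1.22, -1.25 and -1.19 in CHIP null cells, against -1.999, -1.95 and -1.97 in wildtype cells, a 1.68-fold higher ratio, and its other 2 probes differed by 0.23 and 0.26. H2-D1 was 1.34-fold higher (0.42 ± 0.08, SE, n = 3 each), a call lost with slide as a fixed block. Both lie on the chromosome that carries Stub1, at 8.17 and 9.43 Mb from it. Other class I genes of that stretch, outside the list, were called higher too, among them H2-Q1 (0.52), H2-Q7 (0.49), H2-Q2 (0.48) and H2-T23 (0.34). H2-T22 (-0.16), H2-T10 (-0.14) and H2-M3 (0.17) were not called. With the fixed slide block, 12 interferon and antigen genes passed as lower.

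Muscle genes fell as a group: of 25 striated muscle markers tested, 16 were lower and 0 higher in CHIP null cells, with a median of -0.48 (limma, adjusted p at or under 0.05). Of all genes, 8.26% were lower and 4.8% higher. Myl7, the atrial myosin light chain and not a member of the list, had -3.25, -2.997 and -3.17 in CHIP null cells, against -1.72, -1.73 and -1.71 in wildtype cells. Myl4, an embryonic and atrial myosin light chain, differed by -0.94 ± 0.07, and its other probe by -0.84. Tnnc1, Tnni1 and Tnnt1, subunits of slow troponin, differed by -0.87, -0.81 and -0.81. Chrna1, the acetylcholine receptor subunit of the muscle endplate, differed by -0.81, and its other probe by -0.18. Myl1 differed by -0.70 on its brightest probe and by -0.02 on the other. The myogenic regulators Myf5 and Myf6 were not well above background in either genotype. The summed Cy5 signal of the list ran from 13167 to 15458 on CHIP null arrays and from 15397 to 16736 on wildtype arrays, so these sums overlapped. Here and in the lists below, sums are of normalized signal and hold the background offset of 50 for every gene. They therefore understate relative differences, most for dim lists.

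Epithelial and mesothelial markers fell too, 11 of 19 tested lower and 0 higher, against 8.26% and 4.8% of all genes. Their median was -0.27. Msln, a surface protein of mesothelium, had -2.42, -2.33 and -2.30 in CHIP null cells, against -0.79, -0.67 and -0.60 in wildtype cells, a 3.17-fold lower ratio (-1.67 ± 0.07, SE, n = 3 each). Its gene lies 0.08 Mb from Stub1. The keratin pair of simple epithelia, Krt18 and Krt8, differed by -1.20 ± 0.12 and -0.95 ± 0.14. Upk3b, Gpm6a and Wt1, all expressed by mesothelium, differed by -0.99, -0.79 and -0.70. Upk3b was well above background on 1 of the 3 CHIP null arrays, and the epithelial regulators Esrp1 and Grhl2 on none of the 6. Summed Cy5 signal of the list was 2202 to 2496 on CHIP null arrays, against 3199 to 3672 on wildtype arrays, without overlap.

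Neural and glial markers were lower in 17 of 21 tested and higher in 2, against 8.26% and 4.8% of all genes. Their median was -0.35. Ngfr, a neurotrophin receptor of neural crest and Schwann cells, had -1.93, -1.91 and -1.88 in CHIP null cells, against -1.13, -1.005 and -1.10 in wildtype cells. Gap43, a growth cone protein, differed by -0.62, Nefl, a neurofilament chain, by -0.59, Fabp7, a radial glial lipid carrier, by -0.58, Elavl3, a neuronal RNA-binding protein, by -0.52, and Dcx, a microtubule protein of migrating neurons, by -0.52. Olig2 was not well above background on any of the 6 arrays. The sums of Cy5 signal did not overlap, at 3457 to 3537 on CHIP null arrays and 4007 to 4066 on wildtype arrays. With the fixed slide block, 7 members passed as lower.

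Of 15 macrophage markers tested, 9 were lower and 0 higher, against 8.26% and 4.8% of all genes. Their median was -0.29. Ctss, a lysosomal cysteine protease, had -2.81, -2.79 and -2.83 in CHIP null cells, against -1.63, -1.52 and -1.55 in wildtype cells. Lyz2 and Lyz1, the lysozymes, differed by -0.95 and -0.70, with a second Lyz2 probe at -0.21, and the complement chain C1qc by -0.46. Adgre1, a surface receptor of macrophages, differed by -0.55 and was above background on 1 of 3 CHIP null arrays and on all 3 wildtype arrays. The defining leukocyte genes Ptprc, Itgam, Cd53 and Spi1 were not well above background in either genotype. The summed Cy5 signal was 1086 to 1151 on CHIP null arrays and 1547 to 1699 on wildtype arrays, with the offset of 50 per gene included. With the fixed slide block, 4 members passed as lower. In bulk RNA, fewer cells of a type and less RNA per cell cannot be told apart, for these markers and those of the muscle, epithelial and neural lists. The part of such cells in the other differences was not tested.

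Most contractile genes of smooth muscle went against striated muscle: 8 of 15 tested were higher and 2 lower, with a median of 0.20. Of all genes, 4.8% were higher and 8.26% lower. Cnn1, the actin-binding protein calponin, led with 2.20, 2.21 and 2.27 in CHIP null cells, against 1.56, 1.52 and 1.55 in wildtype cells (limma adjusted p 4.7e-10). Acta2 was higher by 0.29 on its brightest probe, and its other probes gave 0.05 to 0.20. Mylk was lower on both probes, by 0.40 and 0.46. Des, listed under both kinds of muscle, differed by -0.38. Fewer members passed as higher with median centring in place of loess (4), with the Feature Extraction ratio (5), in the authors' value table (4), with the fixed slide block (1), and without CHIP null replicate 2 or wildtype replicate 2 (5 each). Endothelial markers were mixed, 1 higher and 3 lower of 11, against 4.8% higher and 8.26% lower of all genes. Cdh5, Pecam1, Sox17 and Tek were not well above background. Of the cartilage, bone and fat markers, 2 of 16 were higher and 0 lower.

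Matrix genes changed in both directions. Of 22 collagen chains, 10 were higher and 5 lower in CHIP null cells, against 4.8% and 8.26% of all genes. Their median was 0.10. Col5a3 had -0.65, -0.62 and -0.65 in CHIP null cells, against -1.57, -1.50 and -1.51 in wildtype cells. Col7a1, the anchoring fibril collagen, differed by 0.66, and Col6a3, a microfibril collagen, by 0.73 with a second probe at 0.14. The chains of type I collagen, the main collagen of fibroblasts, were higher on their brightest probes, Col1a1 by 0.43 ± 0.05 and Col1a2 by 0.55 ± 0.08 (SE, n = 3 each). Other probes gave 0.18 to 0.28 for Col1a1 and -0.02 for Col1a2, whose call was lost when probes were averaged. Both type I calls were lost with the fixed slide block, which left 4 collagens higher. Col2a1, a cartilage collagen, was lower by 0.54, and its other probe by 0.89.

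The small leucine-rich proteoglycans, which regulate collagen fibril assembly, had the largest falls of the other matrix genes. Ogn had -2.47, -2.41 and -2.38 in CHIP null cells, against -1.27, -1.01 and -1.12 in wildtype cells. Lum had -4.77, -4.92 and -4.64 in CHIP null cells, against -3.82, -3.09 and -3.86 in wildtype cells, with wildtype replicate 2 above the others. Dcn had -4.30 and -4.37 on the 2 CHIP null arrays that gave a value, against -3.46, -3.11 and -3.32 in wildtype cells, and the fit left the third array out. Mgp, an inhibitor of calcification, differed by -0.82, and Spon2 by -0.67 with a second probe at -0.24. The list as a whole had 12 members higher and 8 lower of 29, against 4.8% higher and 8.26% lower of all genes. Among metalloproteinases and their inhibitors 7 of 19 were higher and 1 lower, and among the fibroblast markers, which share genes with both matrix lists, 6 of 15 were higher and 2 lower.

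Growth and patterning genes had members in both directions. Of 22 genes of the insulin-like growth factor axis and other imprinted genes, 12 were lower and 2 higher, with a median of -0.25. Of all genes, 8.26% were lower and 4.8% higher. Mest had -3.68, -3.71 and -3.67 in CHIP null cells, against -2.58, -2.20 and -2.45 in wildtype cells (limma adjusted p 9e-12). Igf2, a fetal growth factor, differed by -0.77 and H19, the noncoding RNA of the same imprinted locus, by -0.68, with their other probes at -0.67 and -0.85. Igfbp3, a binding protein of these growth factors, differed by -0.86, and Cdkn1c, a cyclin-dependent kinase inhibitor, by -0.65. Plagl1 differed by -0.77 on its brightest probe and by -0.12 on the other.

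Of 24 genes of TGF-beta and BMP signalling, 7 were lower and 5 higher, against 8.26% and 4.8% of all genes. The ligand Bmp4 had -0.21, -0.19 and -0.20 in CHIP null cells, against 0.57, 0.58 and 0.58 in wildtype cells. Id2 and Id1, targets of BMP signalling that block bHLH factors, differed by -0.94 ± 0.07 and -0.93 ± 0.13 (SE, n = 3 each), and their other probes by -0.70 and -0.83. Bmp1, a procollagen protease despite its name, was higher by 0.52 with a second probe at 0.10. Of 29 transcription factors that pattern the mesenchyme, 11 were lower and 3 higher; Meis2 differed by -0.67, Foxc1 by -0.60 and Msx1 by -0.55. Of 23 HOX genes, 2 were lower and 0 higher, close to the 8.26% of all genes that were lower.

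ATF4 targets, which import and make amino acids and answer amino acid stress, had the highest median of the lists. Of 22 tested, 14 were higher and 0 lower in CHIP null cells, against 4.8% and 8.26% of all genes. Their median was 0.27. Pck2, the mitochondrial enzyme that makes phosphoenolpyruvate, had 0.92, 1.12 and 1.05 in CHIP null cells, against 0.25, 0.37 and 0.34 in wildtype cells (0.71 ± 0.06, SE, n = 3 each). Cth, which makes cysteine from cystathionine, differed by 0.69 and Trib3, a pseudokinase, by 0.54 with a second probe at 0.31. Asns, the asparagine synthetase, had 1.43, 1.36 and 1.49 in CHIP null cells, against 0.95, 0.95 and 0.86 in wildtype cells. Chac1, a glutathione-degrading enzyme, differed by 0.42, and Shmt2, of mitochondrial one-carbon metabolism, by 0.40. The count of higher members was 8 with median centring, 9 with the Feature Extraction ratio, 5 with the fixed slide block and 9 without wildtype replicate 1.

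Of the 20 chaperones and sensors of the endoplasmic reticulum stress response, 0 passed in either direction, with differences from -0.22 to 0.18. Sterol and fatty acid genes had 6 of 27 higher and 0 lower. Chemokine and cytokine genes had 7 of 21 higher and 2 lower. Cxcl5, which attracts neutrophils, had 2.80, 2.46 and 2.45 in CHIP null cells, against 1.70, 1.67 and 1.70 in wildtype cells, and its call was lost with the Feature Extraction ratio, in the value table and with the fixed slide block. Slpi, an inhibitor of leukocyte proteases, was higher by 0.69. Immediate early genes had 4 of 26 higher and 3 lower, against 4.8% higher and 8.26% lower of all genes.

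**Figure D3:**
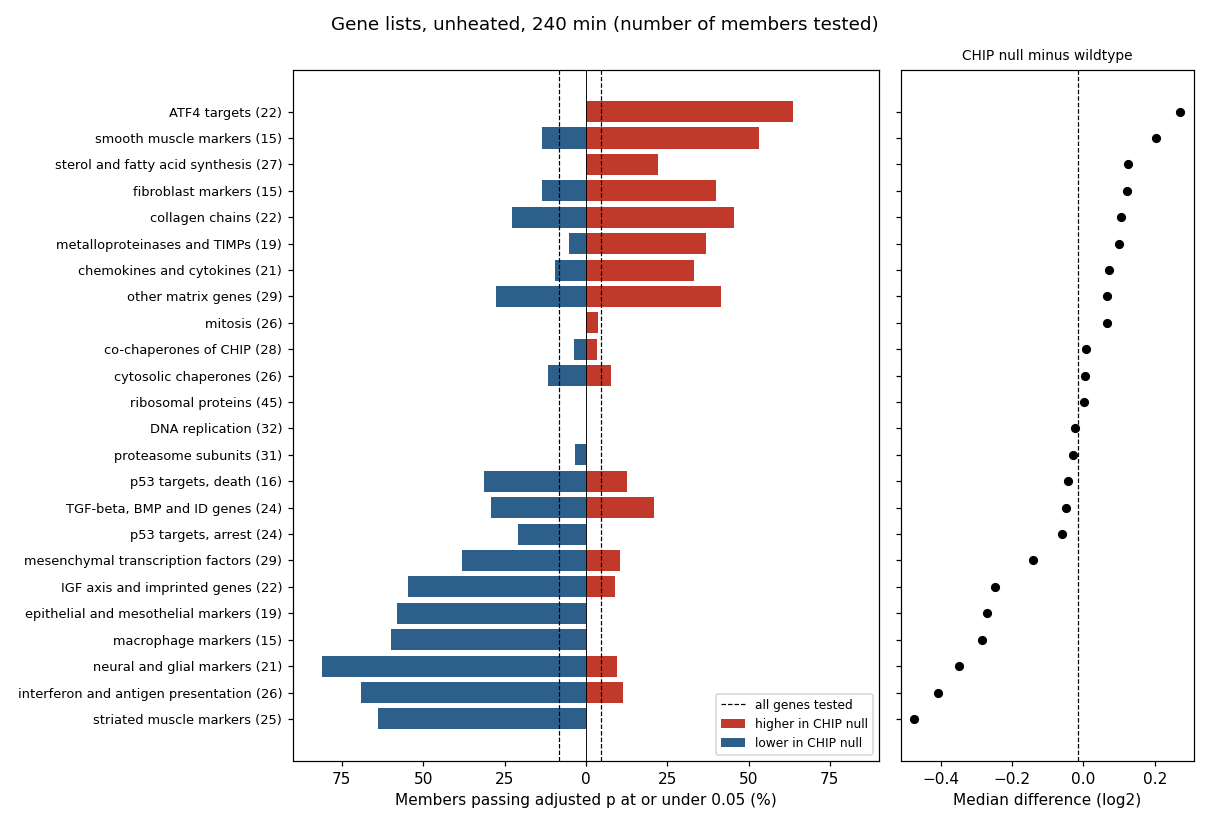
Share of each list's tested members that passed as higher (red, to the right) or lower (blue, to the left) in CHIP null cells, and the list's median difference (log2), with dashed lines for all 13486 genes (4.8% higher, 8.26% lower, median -0.02). ATF4 targets lie at the top with 14 of 22 higher, and striated muscle markers at the bottom with 16 of 25 lower.

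In the chaperone system to which CHIP belongs, 2 of 26 cytosolic chaperones were higher and 3 lower, against 4.8% higher and 8.26% lower of all genes, and all 5 were small heat shock proteins. Hspb1 and Hspb8 differed by 0.45 and 0.41, and Hspb2, Cryab and Hspb3 by -0.44, -0.30 and -0.28. The second Cryab probe differed by 0.02. Hspa8, the constitutive HSP70 to which CHIP binds, had 0.35, 0.34 and 0.38 in CHIP null cells, against 0.34, 0.39 and 0.35 in wildtype cells, and the groups overlapped. Hspa1a, the heat-inducible HSP70, had -0.79, -0.70 and -0.76 in CHIP null cells and -0.89, -0.93 and -0.85 in wildtype cells, and did not pass the test (0.14 ± 0.38, SE, n = 3 each; limma adjusted p 0.88). The SE comes from the spread over all 8 groups, the heated ones included. Hsf1, the heat shock transcription factor, differed by 0.06 ± 0.07 (adjusted p 0.65).

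Of 28 genes in a list of CHIP, co-chaperones and related genes, 1 was lower, Stub1 itself, and 1 higher, Pdrg1, by 0.19. The call was made in 1 of 31 proteasome subunits (lower), 1 of 27 ubiquitin genes and chaperone-linked ligases (higher) and 1 of 20 autophagy genes (higher). It was also made in 1 of 14 chaperonin and prefoldin subunits (lower) and 3 of 14 mitochondrial chaperones and proteases, against 13.1% of all genes. Of 45 ribosomal protein genes, 0 passed, with differences from -0.17 to 0.18.

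The proteins named in the title were next. Daxx had -0.35, -0.36 and -0.26 in CHIP null cells, against -0.24, -0.14 and -0.25 in wildtype cells, and did not pass the test (-0.11 ± 0.06, SE, n = 3 each; limma adjusted p 0.27). Trp53, which encodes p53, differed by 0.11 ± 0.06 (adjusted p 0.31), and Mdm2, its ubiquitin ligase and target, by -0.26 ± 0.09 (adjusted p 0.069). Of 24 p53 targets of arrest and feedback, 5 were lower and 0 higher, against 8.26% lower and 4.8% higher of all genes. They included Cdkn1a, the cell cycle inhibitor p21, which had 0.22, 0.38 and 0.28 in CHIP null cells, against 0.69, 0.68 and 0.79 in wildtype cells. Trp53inp1 and Ccng1 differed by -0.50 and -0.33, and both calls were lost with median centring and with the fixed slide block.

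Of 16 p53 targets in cell death, 5 were lower and 2 higher, against 8.26% lower and 4.8% higher of all genes. Perp was the largest of them. Pmaip1, which encodes the BH3 protein NOXA, differed by -0.39 and lost its call with median centring and with the fixed slide block. Of 21 genes around DAXX, the HIPK kinases and ASK1, 1 passed, as lower. Of 20 other BCL2 family and caspase genes, 2 were higher and 2 lower, not far from those shares of all genes. Cyclins of the G1 phase and inhibitors of their kinases had 6 of 18 lower and 0 higher. Among genes of proliferation, 1 of 26 mitosis genes was higher and 0 of 32 DNA replication genes passed, with differences from -0.16 to 0.17 for replication.

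Genes near Stub1 were counted apart, by their distance from it. Within 5 Mb of Stub1, 11 of 152 genes were higher and 21 lower (21.1%), within 1 Mb 3 of 55 higher and 9 lower (21.8%), and beyond 10 Mb on the same chromosome 17 of 302 higher and 19 lower (11.9%), against 13.1% of all genes. Other chromosomes lay between 10.9% and 16%. Apart from Stub1, 0 higher and 4 lower genes within 5 Mb passed 1.5-fold. Zfp945 and Msln were the lowest.

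**Figure D4:**
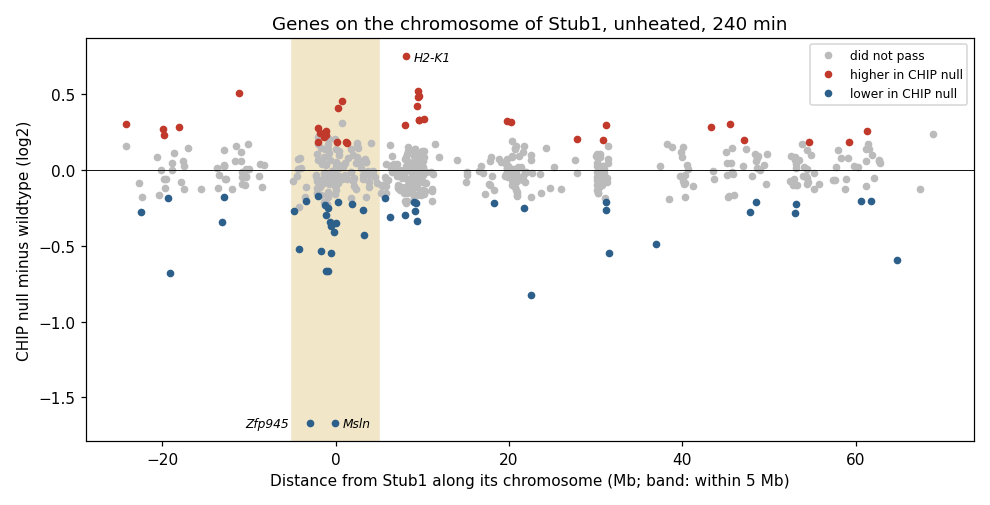
Genotype difference (CHIP null minus wildtype, log2) of tested genes on the chromosome of Stub1 against their distance from it in Mb, with Stub1 itself left out and a band for 5 Mb on either side. Red passed as higher, blue as lower; Msln and Zfp945 lie lowest inside the band, and H2-K1 highest outside it.

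The genotype difference at 240 min was set beside that in heated cells of the same label, which shares no array with it. Both comparisons lay on the same 3 slides, and in neither did the genotypes share a slide, so slide and genotype cannot be told apart in what they have in common. In heated cells 1749 genes (13%) differed between genotypes. The 2 sets shared 1126 genes in the same direction, 63.9% of the unheated set and 64.4% of the heated one, and 0 in opposite directions. Across the 13486 genes the differences correlated at r = 0.829 (rho = 0.673), a description over genes, which are not independent. The test of the difference between the 2 effects passed in 0 genes (0%), with 471 (3.49%) at an unadjusted p at or under 0.05 and a smallest adjusted p of 1 (limma). That 0 genes passed does not show that the 2 effects were equal in size. Bst2 differed by -1.55 in unheated cells against -1.49 in heated cells, and Plac8 by 1.43 against 1.36. Msln differed by -1.67 in unheated against -1.57 in heated cells, and Pck2 by 0.71 against 0.81. Some list medians were nearer 0 in heated cells: striated muscle -0.475 unheated against -0.255 heated, epithelial and mesothelial -0.27 against -0.11, and smooth muscle 0.20 against 0.09. Others were further from 0: the IGF axis and imprinted genes -0.25 unheated against -0.34 heated, and collagens 0.10 against 0.20.

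Unheated cultures labelled 30 min gave another picture. There 4592 genes (34.1%) differed between genotypes, 1980 higher (14.7%) and 2612 lower (19.4%) in CHIP null cells, and the test of the difference between labels passed in 2436 genes (18.1%), 1233 with a higher (9.14%) and 1203 with a lower value (8.92%) at 240 min. That count was 784 with median centring and 697 with slide as a fixed block. Of the genes called at 240 min, 872 were called in the same direction at 30 min (49.5% of the 240 min set, 19% of the 30 min set) and 145 in the opposite direction. The correlation over genes was r = 0.374 (rho = 0.341). The 30 min and 240 min arrays lay on different slides, and time label and slide cannot be told apart. Xist, expressed from the inactive X chromosome of female cells, differed by 0.03 between genotypes at 240 min and by 1.80 at 30 min. The 2 Y-linked genes tested, Ddx3y and Eif2s3y, were called lower in CHIP null cells at 30 min. All 3 of these sex-linked genes differed between the labels. The part of the sex of the cultures in the other differences was not tested.

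At 240 min, interferon genes had a median of -0.41, against -0.005 at 30 min. There 4 members were lower and 3 higher, against 19.4% and 14.7% of all genes. Of the 26 members, 16 differed between the labels, against 18.1% of all genes. Striated muscle markers had a median of -0.48 at 240 min and -0.10 at 30 min, and 12 of 25 differed. Epithelial and mesothelial markers had medians of -0.27 at 240 min and -0.12 at 30 min, and 8 of 19 differed. Smooth muscle markers had a median of 0.20 at 240 min and -0.17 at 30 min, and 10 of 15 differed. Proliferation genes differed between the labels: 1 of 26 mitosis genes was higher in CHIP null cells at 240 min, against 24 at 30 min, and 21 differed. For DNA replication genes the counts were 0 of 32 at 240 min and 30 at 30 min, and 27 differed. ATF4 targets had medians of 0.27 at 240 min and 0.21 at 30 min, and 7 of 22 differed. Other lists also kept their direction. Macrophage markers had medians of -0.29 at 240 min and -0.46 at 30 min, where all 15 were lower, and 3 differed. Neural and glial markers had -0.35 at 240 min and -0.22 at 30 min, where 13 of 21 were lower, and 8 differed. The IGF axis and imprinted genes had -0.25 at 240 min and -0.18 at 30 min, where 12 of 22 were lower, and 7 differed. Stub1 itself differed by -1.83 at 30 min, and the 2 differences did not pass as unequal (adjusted p 0.1).

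**Figure D5:**
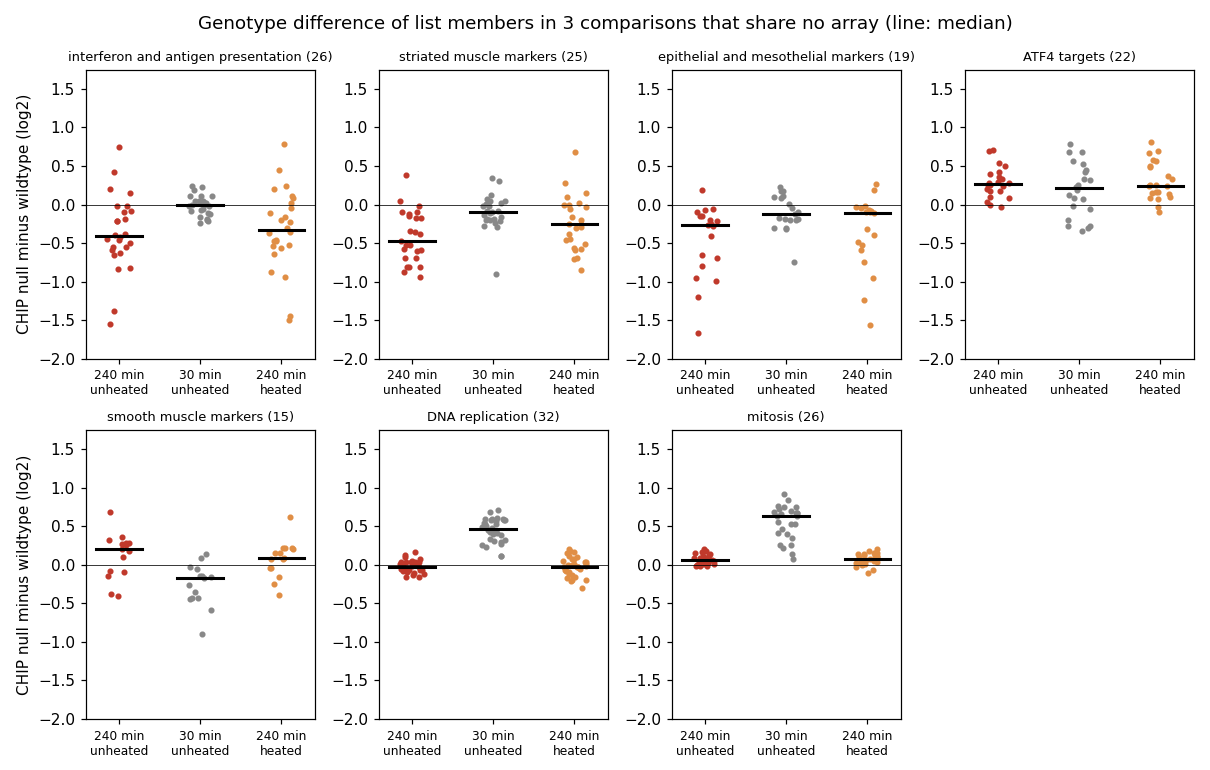
Genotype difference (CHIP null minus wildtype, log2) of each tested member of 7 lists in 240 min unheated, 30 min unheated and 240 min heated cells, with the median as a line. Interferon genes centre below 0 in both 240 min comparisons and near 0 at 30 min, and replication and mitosis genes centre near 0 in both 240 min comparisons and above 0 at 30 min.

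The largest differences between the labels lay in genes of several kinds. Penk was lower by 1.93 in CHIP null cells at 240 min and higher by 0.56 at 30 min. Ncan, a brain proteoglycan, and Fabp7 differed by -0.36 and -0.58 at 240 min, against -3.62 and -3.26 at 30 min. Mlc1, an astrocyte membrane protein, differed by 0.02 at 240 min and by -2.61 at 30 min. The matrix protease Mmp3 and the IL-33 receptor Il1rl1 differed by -0.17 and 0.02 at 240 min, against 2.52 and 2.49 at 30 min. Mest, Ctss, Ngfr, Id2, Itga11, Cck and Asns had differences of the same sign under both labels, and for these 7 the test between labels did not pass.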

How the data were processed

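RNA of 24 samples was hybridized on 2-colour Agilent arrays, and the 6 arrays of unheated cells labelled 240 min were compared. Agilent Feature Extraction, version 9.1.3.1, quantified the spots, per the file headers. Deposited intensity values are mean spot and median background signals, uncorrected, per the file headers. The deposited log10 ratio of Cy5 over Cy3 is corrected and dye-normalized, per the file headers. The authors' value table holds processed values, with a scale not stated, so that they are treated as a score; set against the scanner files, its control columns are that log10 ratio over the natural log of 2, and so Cy5 over Cy3. All control columns matched scanner files of the other time label (correlation at least 0.9996, against at most 0.9004 for their own), so the times given are those of the scanner files, and the right label could not be settled.

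Background was corrected by normexp with an offset of 50, which draws dim ratios towards 0, and ratios were normalized by loess, control spots at weight 0, with 333 outlier spots left out. Of 41174 probes, 22951 were named by accession in RefSeq (GRCm38.p6), 6659 by symbol and 3109 by synonym, and 8455 kept the file's name. Each gene was given by its brightest probe. The 13486 genes tested had this probe well above background in the sample channel throughout at least 1 group of 3 arrays. limma 3.58.1 (R 4.3.3, data.table, version 1.17.8, statmod 1.5.0) fitted 8 group means to all 24 arrays, which left 16 residual and 11.7 prior degrees of freedom. The Benjamini-Hochberg threshold was 0.05. On simulated arrays with 13486 genes, 98 of 100 genes changed 1.5-fold and 100 of 100 changed 2-fold were recovered, with 9 false calls. Smaller changes were not simulated, and only 185 of the 1762 called genes lay past 1.5-fold. The simulated noise was independent between genes and held no slide effect, so false calls that come from slide are not covered. The number of arrays limits the precision. p-values measure the spread between these samples, whose cultures the labels do not identify.

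Named genes followed a rule: Stub1, Daxx, Trp53, Mdm2, Hspa1a, Hspa8 and Hsf1, the 15 most higher and 15 most lower called genes whose groups do not overlap, up to 6 called members of each list, and the 6 largest differences between labels; some of these genes are not reported here. H2-D1, the class I genes outside the list, Oas1a, Irf1 and the genes named only for a promoter match were added after their values were seen. The genes, lists and members were chosen with earlier results of these data known. Alternatives covered normalization, offset, filter, probe choice, samples in the fit, slide, replicate number, single arrays and the value table.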

Additional observations from a re-analysis of the deposited data

Results flagged for a closer look

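The genotype difference of the unheated cultures was not the same under the 2 time labels, which cannot be told apart from slide. The test of the 240 min against the 30 min difference passed in 2436 genes, in 784 with median centring and in 697 with slide as a fixed block. At 30 min the genotypes also differed in Xist and in the 2 Y-linked genes tested. Values here are the 240 min minus the 30 min difference of CHIP null minus wildtype, on the log2 scale, for the named genes that passed.

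Among genes called higher in CHIP null cells, the value was 1.07 for Serpinf1, 1.01 for Vps13a (on 1 of its probes, whose Cy5 signal was lower in CHIP null cells), 0.89 for Plac8, 0.88 for Adra2a, 0.56 for Itgb3 and 0.29 for Sgk1. For Slc16a3 it was -0.53. Among interferon and antigen genes it was -1.78 for Bst2, -1.68 for Rtp4, which is not in that list, -1.49 for Isg15, -0.94 for Irf9, -0.82 for Usp18, -0.67 for Oas1a and -0.65 for Oasl2, but 0.76 for H2-K1 and 0.40 for H2-D1. All of these interferon genes thus had a lower difference at 240 min, and both antigen genes a higher one.

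Muscle genes had values below 0: Myl7 -1.26, Myl4 -1.01, Chrna1 -0.86, Tnnt1 -0.79, Tnnc1 -0.76, Myl1 -0.74 and Tnni1 -0.73. So did the epithelial and mesothelial genes Msln (-1.89), Krt8 (-1.07), Upk3b (-0.89), Krt18 (-0.88), Lsr (-0.85), Perp (-0.72) and Wt1 (-0.58). Neural and glial genes were split, with 3.27 for Ncan, 2.68 for Fabp7 and 2.63 for Mlc1, against -0.65 for Gap43 and -0.46 for Nefl. The lysozymes Lyz2 and Lyz1 had 1.73 and 1.38.

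In the matrix, the value was -2.20 for Dcn, -1.84 for Lum, -0.81 for Mgp and -0.68 for Ogn, and 1.5 for Col7a1, 0.42 for Col5a3, 0.42 for Col1a2, 0.33 for Col1a1 and 0.73 for Bmp1. Cnn1 had 1.27. Growth and patterning genes had -0.92 for H19, -0.84 for Bmp4, -0.81 for Igf2, -0.75 for Id1, -0.58 for Msx1 and -0.38 for Foxc1. Penk had -2.49, Mmp3 -2.69, Il1rl1 -2.47, Slpi -1.53, Cxcl5 -1.49, Zfp945 -0.40 and Xist -1.77. Small heat shock proteins had 1.74 for Hspb8, 1.37 for Cryab and 0.87 for Hspb1. The p53 targets Pmaip1, Trp53inp1 and Ccng1 had 1.03, 0.56 and 0.47. Pdrg1, a member of the co-chaperone list, had 0.44, and the ATF4 targets Cth and Pck2 had 0.62 and 0.29.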

How the results depend on the processing

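Called genes numbered 1762, with 648 higher and 1114 lower in CHIP null cells. Median centring gave 833 (318 higher, 515 lower), slide as a fixed block 470 (133 higher, 337 lower) and the values deposited by the authors 1135 (420 higher, 715 lower). The Feature Extraction ratio gave 1181, an offset of 10 gave 1337, and slide as a random block gave 1512. Leaving out 1 array gave 1283 to 1517. The replicate block on the 6 arrays gave 2445. Deviations of arrays with the same number correlated at 0.189, 0.13 and 0.0912, the last of them under a threshold of 0.1. Every array correlated best with its own number, a hint from the data and not from the design. The labels do not say that the numbers pair the samples, and they were not taken to do so. The difference from the 30 min label passed in 2436 genes, in 784 with median centring and in 697 with the fixed slide block. The difference from heated cells passed in 0 genes, in 1 with the fixed slide block, and in 0 to 3 without 1 array (3 without CHIP null replicate 3). Stub1 ranged from -2.27 to -2.01 over its alternatives.

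Signs that turned all belonged to genes that had not passed, over the alternatives listed: Daxx 0.011, Mdm2 0.021 and Xist -0.13 with the fixed slide block; Hspa8 0.18 with median centring, 0.037 with the Feature Extraction ratio and in the value table, 0.019 with an offset of 10 and 0.0034 with averaged probes. Leaving out 1 array gave -0.016 to 0.0097 for Hspa8, -0.044 to 0.075 for Il1rl1, -0.013 to 0.059 for Mlc1 and -0.018 to 0.103 for Xist. Calls lost with the fixed slide block also included Hspb1, Hspb8, Cryab, Chac1, Shmt2, Plagl1, C1qc, Nefl, Dcx and Ncan. Ccn5 and Dcx lost theirs in the value table and Gap43 with the Feature Extraction ratio. Mdm2 passed with the 6 arrays alone, with the replicate block and in the value table. Hspa1a differed by 2.63 with the fixed slide block, which ties the genotypes through a heated array. The cause of these changes was not tested. The offset of 50 limits the folds of dim genes.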

Other observations

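Some metabolic and antioxidant genes passed the test, which 13.1% of all genes did. Of 24 genes of glycolysis and the hypoxia response, 3 were higher and 0 lower in CHIP null cells, with a median of 0.04, although Slc16a3, which exports lactate, was 1.92-fold higher. Of 23 antioxidant and metallothionein genes, 2 were higher and 3 lower. Of 28 listed neighbours of Stub1, itself included, 2 were higher and 5 lower. The Y-linked genes listed were not well above background on any of the 6 arrays. Of 3 sex-linked genes tested, 0 passed at 240 min, against 1 higher and 2 lower in CHIP null cells at 30 min. Of 11 germ cell and pluripotency markers listed, 3 were tested and 0 passed.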
